A study of Mus musculus with 6 samples.

Results

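The cytosolic ribosomal protein genes were the 84 protein-coding rows, of 56748 rows in the deposited count table, whose symbols follow the Rpl and Rps naming pattern with the P-stalk genes Rplp0, Rplp1 and Rplp2 and with Rpsa, leaving out the Rps6k kinases and every pseudogene row. Of these, 52 encode proteins of the large ribosomal subunit and 32 proteins of the small subunit, and they lie on 19 chromosomes. Bulk poly(A)-selected RNA-seq was performed on primary stromal cells from gonadal white adipose tissue. The col1-ACLP group (n = 3 libraries) was cultured on type I collagen polymerized with 30 nM recombinant aortic carboxypeptidase-like protein (ACLP), a secreted collagen-binding matrix protein, and the col1 group (n = 3 libraries) on collagen polymerized without it. Both groups were WT cells from mice labelled C57B1/6, of both sexes, 12 weeks old, plated directly from the stromal vascular fraction on 12 kPa hydrogels with 0.05 mg/mL collagen for 48 h. The plated fraction is a mixture of cell types, so a difference in cell makeup and a difference in RNA per cell cannot be told apart in these bulk libraries. The study calls the libraries of a group biological replicates, but nothing in the labels ties a library to an animal or culture of its own, and each p-value covers just the library-to-library spread, part or all of which could be technical.

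Each ribosome is built from ribosomal RNAs and one copy of most ribosomal proteins, and unassembled ribosomal proteins are degraded, so cells coordinate their supply. In vertebrates the mRNAs of these proteins begin with a 5′ terminal oligopyrimidine (TOP) tract, a C followed by an uninterrupted run of pyrimidines, through which mTORC1 and the RNA-binding protein LARP1 control their translation. Ribosomal protein mRNAs are abundant and have left many processed pseudogenes, intronless copies inserted elsewhere in the genome, with sequences close to the parent gene. A short read from such a gene can match several places.

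Libraries held 33343651 to 47142754 counts. Levels in counts per 1000000 (CPM) were scaled by edgeR's trimmed mean of M values (TMM). Stromal, macrophage, endothelial and mural genes were detected. The summed level of 10 macrophage markers was 597 to 684 CPM in col1-ACLP libraries and 602 to 727 CPM in col1 libraries, and none of the 10 passed an adjusted p of 0.05 in edgeR. Of 8 stromal markers, 2 were higher (Col1a1 and Col1a2) and 1 lower (Dcn) at that threshold, with summed levels of 21467 to 32040 CPM in col1-ACLP libraries and 18371 to 21664 CPM in col1 libraries. Of 6 mesothelial markers, 1 (Upk3b) was lower, with sums of 198 to 217 CPM in col1-ACLP libraries and 164 to 246 CPM in col1 libraries. No endothelial, mural, lymphocyte or mature adipocyte marker passed. The 6 endothelial markers summed to 696 to 868 CPM in col1-ACLP libraries and 775 to 905 CPM in col1 libraries. For the 6 mural markers the sums were 221 to 311 CPM in col1-ACLP libraries and 206 to 223 CPM in col1 libraries. Lymphocyte markers summed to 0.570 to 0.861 CPM in col1-ACLP libraries and 1.14 to 2.13 CPM in col1 libraries. The part of these markers in the results was not tested. The 18S rRNA row, a remnant after poly(A) selection, took 0.522%, 0.579% and 0.479% of counts in col1-ACLP libraries, against 0.264%, 0.251% and 0.326% in col1 libraries. These groups do not overlap, and the log2 fold change of the row was 0.94 ± 0.11 (SE, edgeR adjusted p = 0.00016). The part of this difference in the results for ribosomal protein genes was not tested.

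Ribosomal protein genes took overlapping shares of the libraries in the groups. Their share was 5.16%, 5.98% and 5.98% of counts in col1-ACLP libraries, against 6.02%, 5.60% and 5.64% in col1 libraries. The mean was 5.71% ± 0.47 in col1-ACLP libraries and 5.75% ± 0.23 in col1 libraries (SD, n = 3 each), and the groups overlap, with the lowest share in col1-ACLP replicate 1 and the highest in col1 replicate 1. Rows named as ribosomal protein pseudogenes added 0.158%, 0.201% and 0.195% in col1-ACLP libraries, against 0.178%, 0.180% and 0.191% in col1 libraries.

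**Figure D1:**
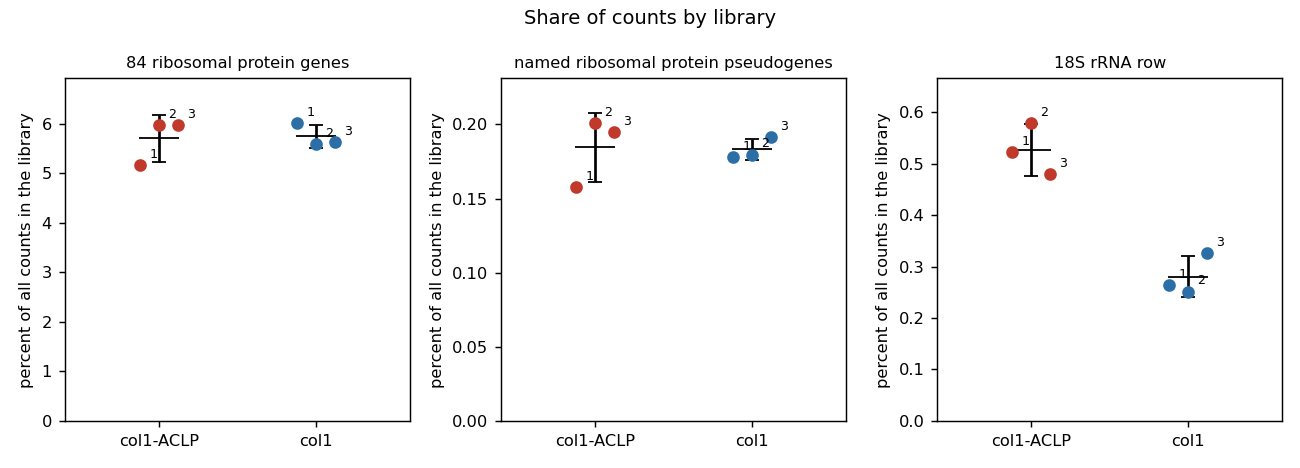
Share of all counts in each library (y axis, percent) taken by the 84 ribosomal protein genes, by the named pseudogene rows and by the 18S rRNA row, with libraries as numbered points and mean ± SD in black. The groups overlap for the first 2 shares, while the 18S row was at 0.479% to 0.579% in col1-ACLP libraries and 0.251% to 0.326% in col1 libraries.

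Within a col1-ACLP library many members shifted together, but the direction was not the same in all col1-ACLP libraries. Across the 76 members at a mean of 100 CPM or more, col1-ACLP replicate 1 was the lowest of the 6 libraries for 46 members, and its median member lay 0.12 log2 units below the gene's mean (-0.12). The other col1-ACLP libraries had median offsets of 0.09 (replicate 2) and 0.08 (replicate 3), and were the highest library for 36 and 19 members. In col1 libraries the median offsets were 0.05, -0.04 and -0.04 for replicates 1 to 3. These were the lowest library for 5, 9 and 15 members and the highest for 18, 1 and 2. The offsets of other genes were not compared. The spread inside the col1-ACLP group therefore spans the whole range of the col1 group.

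**Figure D2:**
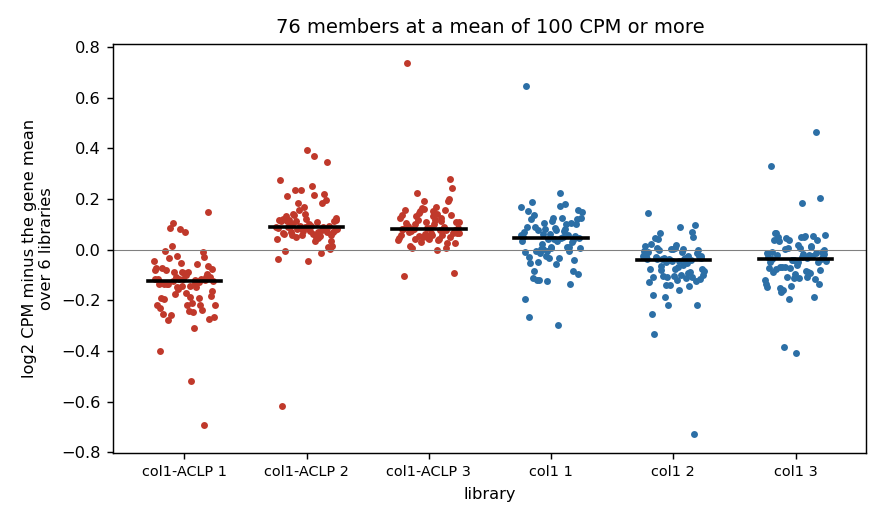
Log2 CPM of 76 ribosomal protein genes minus each gene's mean over the 6 libraries (y axis), by library (x axis), with 1 point a gene in alphabetical order and the median as a black bar. The median bar is lowest in col1-ACLP replicate 1 (-0.12) and highest in col1-ACLP replicate 2 (0.09).

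Levels differed widely between members. On a per-length scale, transcripts per 1000000 (TPM) computed from the counts and the table's gene lengths, the median member stood at 909 TPM, 37 members exceeded 1000 TPM and the members together made up 10.2% of the total. The highest was Rplp1, a P-stalk protein that helps recruit translation factors, at 10366 ± 916 TPM in col1-ACLP libraries and 10540 ± 456 TPM in col1 libraries (SD, n = 3 each). It was followed by Rps3a1 of the small subunit, by Rpl41, which encodes a very small basic protein of the large subunit, by the P-stalk base protein Rplp0, and by Rps15 of the small-subunit head, at means over all libraries of 5558, 3895, 3645 and 3469 TPM. These levels carry the table's union gene lengths, so long rows such as Rps15a at 6270 bases are placed low.

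TOP tracts were visible at some annotated starts. RefSeq promoter entries (GRCm38.p6) matched 64 of the 84 members, with 76 starts. A C at the start followed by at least 4 further pyrimidines, read on the gene's own strand, stood exactly at 17.1% of member starts, against 2.51% of all 32851 starts, and within 5 bases of the start at 40.8% of member starts, against 18.3% of all. The 5 members with the longest such tract are shown, with Rpl28, the first by name of 4 members tied after them, because the tract is the feature that links these mRNAs. Each line runs from 15 bases before the start to 15 bases from it on the gene's strand, with the tract at the start in capitals.
Rpl15: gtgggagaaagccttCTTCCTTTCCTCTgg
Rpl35: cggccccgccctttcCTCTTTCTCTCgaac
Rps10: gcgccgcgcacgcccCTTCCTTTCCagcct
Rps18: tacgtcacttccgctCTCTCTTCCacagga
Rps6: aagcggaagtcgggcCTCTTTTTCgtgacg
Rpl28: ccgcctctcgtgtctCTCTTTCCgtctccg
In the order printed, these are chr14:18270972-18271001, chr2:39005117-39005146, chr17:27635230-27635259, chr17:33955651-33955680 and chr4:86857353-86857382 on the minus strand, and chr7:4792950-4792979 on the plus strand. The median log2 fold change was 0.09 for the 13 tested members with a tract exactly at an annotated start (range -0.03 to 0.31) and 0.03 for the 49 with an entry but no such tract (range -0.38 to 0.34). Rpl17, Rpl32 and Rpl21, described below, matched no entry and are in neither set.

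The main comparison asked which members differed between col1-ACLP and col1. Of the 84 members, 82 had enough counts to be tested, and 1, Rpl17, passed both an adjusted p below 0.05 and an absolute log2 fold change above 0.58 (edgeR quasi-likelihood test with Benjamini-Hochberg adjustment over 17717 genes). That is 1.22% of the tested members, against 1.38% of all tested genes, and at the adjusted p alone it was again 1 member, against 2.05% of all tested genes. In the lower direction that 1 member stands against 0.722% of all tested genes at both thresholds and 1.12% at the adjusted p alone. In the higher direction 0 members stand against 0.66% at both thresholds and 0.931% at the adjusted p alone. At an unadjusted p below 0.05 there were 6 members, or 7.32%, against 14.9% of all tested genes. DESeq2 and limma-voom each called 1 further member higher at the adjusted p alone, Rpl32. The CPM values of the groups did not overlap for 8 members, or 9.76%, against 20.4% of all tested genes. On col1-ACLP 7 of these 8 were higher and 1 lower, while the shares over all tested genes were 10.2% higher and 10.2% lower. Shares were larger among the 2116 tested genes at 100 CPM or more. Of these, 2.32% passed both thresholds, 5.48% the adjusted p alone and 25.3% the unadjusted p, and 29.4% did not overlap. For the 76 members at that level the shares were 1.32%, 1.32%, 7.89% and 10.5%.

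The fold changes of the members lay close to zero and to each other. Their median log2 fold change was 0.04, with an interquartile range of -0.02 to 0.10, against a median of 0.01 and an interquartile range of -0.12 to 0.14 for the 2116 tested genes at 100 CPM or more. The 95% interval lay wholly within ±0.58 for 72 of the 76 members at that level (94.7%), against 87.9% of those 2116 genes. Large-subunit members had a median of 0.06 (50 tested) and small-subunit members a median of 0.02 (32 tested). The median moved with single libraries: it was 0.11 without col1-ACLP replicate 1 and 0.00 (-0.00079) without col1-ACLP replicate 2.

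**Figure D3:**
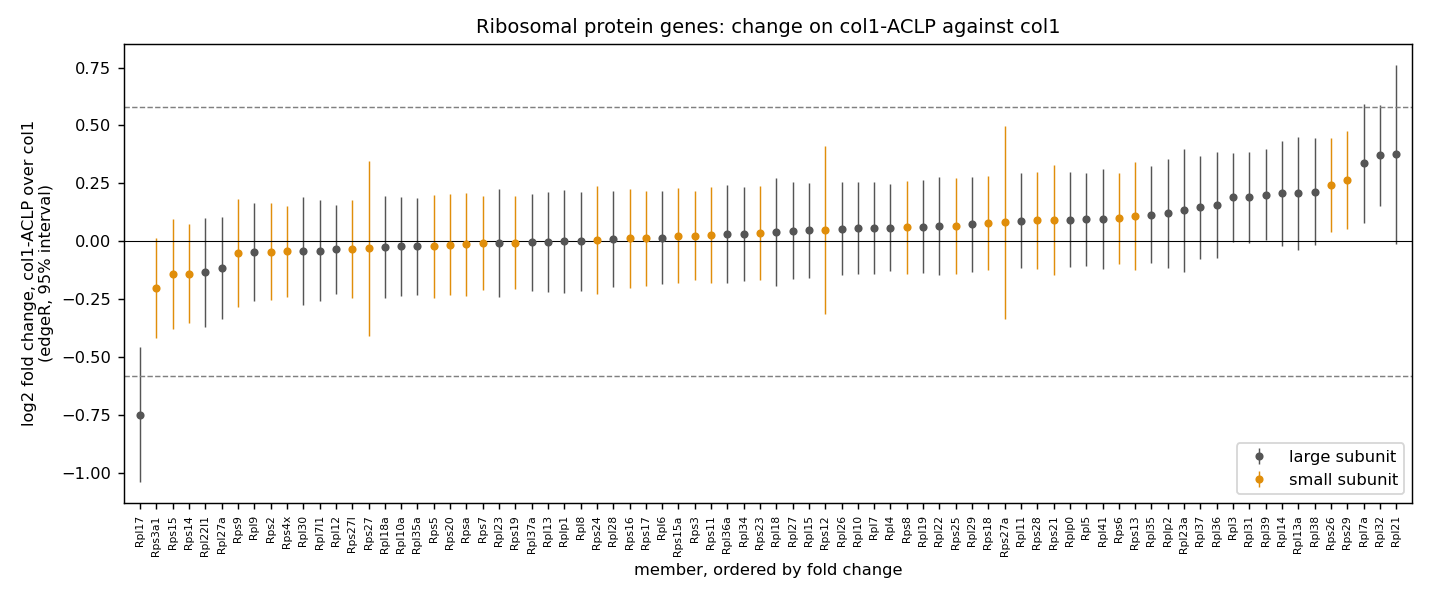
Log2 fold change of col1-ACLP over col1 (y axis, edgeR estimate with 95% interval) for the 78 tested members at a mean of 10 CPM or more, ordered from lowest to highest, with dashed lines at ±0.58. Rpl17 at -0.75 is the one member whose interval excludes zero on the lower side, and most other points lie between -0.25 and 0.25.

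Rpl17 (ENSMUSG00000062328, chromosome 18, 75131629 to 75136452, plus strand, GRCm39), a large-subunit protein that lines the exit tunnel of the nascent chain, fell on col1-ACLP. Its level was 329, 283 and 404 CPM in col1-ACLP libraries, against 680, 480 and 545 CPM in col1 libraries. Every col1-ACLP library lay below every col1 library, with raw counts of 13125, 12488 and 14883 against 22943, 23064 and 23283. The log2 fold change was -0.75 ± 0.14 (SE; 95% interval -1.04 to -0.46; edgeR adjusted p = 0.0077), a ratio of 0.596. Leaving out single libraries moved it between -0.89 and -0.60, with an edgeR adjusted p of at most 0.041.

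None of the rows that copy Rpl17 passed the test. All of its 31-base coding words, and all of its 100-base coding words, occur elsewhere in GRCm39, and 9 pseudogene rows that each hold at least 50% of its 31-base words carried 107099 counts over the 6 libraries, nearly as many as the 109786 counts of Rpl17. Rpl17-ps3 (chromosome 12) had 179, 287 and 183 CPM in col1-ACLP libraries, against 154, 148 and 173 CPM in col1 libraries. These groups do not overlap either, in the opposite direction to Rpl17, with a log2 fold change of 0.45 ± 0.15 (SE; edgeR adjusted p = 0.15). Rpl17-ps10 (chromosome 7) had 140, 252 and 256 CPM in col1-ACLP libraries, against 121, 241 and 266 CPM in col1 libraries, and its groups overlap.

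With the 9 copies added to Rpl17, an alternative chosen after seeing the data, the call was lost. The copies held nearly as many counts as Rpl17, so adding them would shrink its fold change even if they did not differ between groups. The sum was 674, 863 and 878 CPM in col1-ACLP libraries, against 979, 897 and 1017 CPM in col1 libraries, which still do not overlap. Its log2 fold change was -0.26 ± 0.11 (SE; 95% interval -0.49 to -0.03; edgeR adjusted p = 0.26). With copies added to every member that had them, no member passed the adjusted p, and 6 had an unadjusted p below 0.05. How the authors' counting assigned reads that match several places is not stated in the labels or the methods. Its part in the Rpl17 result was not tested, and the sum cannot decide it because of this dilution.

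**Figure D4:**
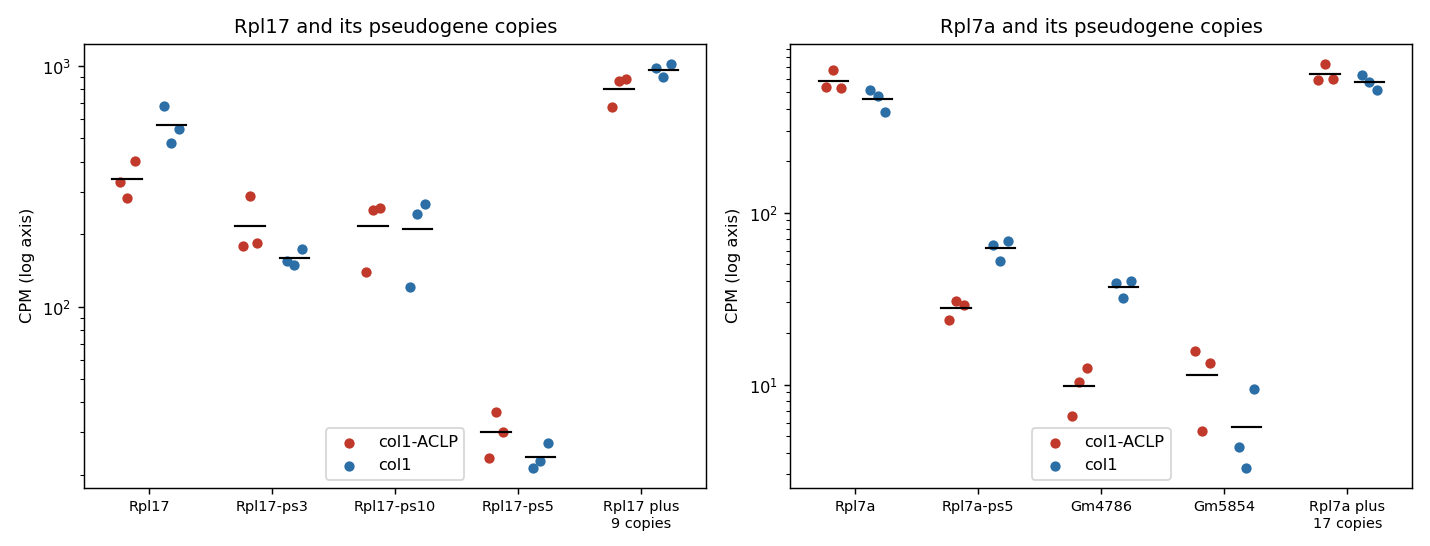
CPM (log axis) of Rpl17 and Rpl7a, of 3 pseudogene copies of each, and of each gene with all its copy rows added, by library, with col1-ACLP points left of col1 points and group means as black bars. Rpl17 is at 283 to 404 CPM on col1-ACLP and 480 to 680 CPM on col1, while its sum with 9 copies is at 674 to 878 CPM on col1-ACLP and 897 to 1017 CPM on col1.

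Of members with higher values on col1-ACLP, Rpl32 had the smallest p. Rpl32 (chromosome 6, 115782466 to 115785708, minus strand), a large-subunit protein, had 411, 449 and 446 CPM in col1-ACLP libraries, against 352, 366 and 293 CPM in col1 libraries. The groups do not overlap, and the log2 fold change was 0.37 ± 0.10 (SE; edgeR adjusted p = 0.079), short of the threshold. It passed the adjusted p alone with DESeq2 (0.012), with limma-voom (0.046) and in edgeR with no filter on low counts (0.036), and over all alternatives the adjusted p ranged from 0.012 to 0.35. It never exceeded the fold threshold. Only 0.98% of its 100-base coding words occur elsewhere, and no row was added to it as a copy.

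Rpl7a (chromosome 2, 26800776 to 26803330, plus strand), a large-subunit protein, had 538, 674 and 527 CPM in col1-ACLP libraries, against 515, 476 and 386 CPM in col1 libraries. Its log2 fold change was 0.34 ± 0.12 (SE; edgeR adjusted p = 0.19). A pair of its copies on chromosome 17 differed the other way and by more. Rpl7a-ps5 had 23.7, 30.5 and 28.9 CPM in col1-ACLP libraries, against 64.7, 52.5 and 68.5 CPM in col1 libraries (log2 fold change -1.16 ± 0.14; edgeR adjusted p = 0.00015), and it was the one called row among the 113 tested rows named as ribosomal protein pseudogenes. Gm4786 had 6.52, 10.4 and 12.4 CPM in col1-ACLP libraries, against 38.8, 32.1 and 39.8 CPM in col1 libraries (log2 fold change -1.91 ± 0.19; edgeR adjusted p = 3.87e-05). With its 17 copy rows added, Rpl7a stood at 592, 731 and 596 CPM in col1-ACLP libraries, against 634, 573 and 517 CPM in col1 libraries, and the groups overlapped (log2 fold change 0.15 ± 0.11; edgeR adjusted p = 0.57).

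Stretches of these copies are nearly identical to Rpl7a. Coding bases 181 to 240 of Rpl7a are shown. Among the closely matching 60-base stretches examined, this was chosen because the nearer copy differed most there. The copies are at chr17:58145977-58146036 (Rpl7a-ps5, minus strand) and chr17:16777688-16777747 (Gm4786, plus strand) of GRCm39. Capitals mark the bases that differ, in Rpl7a wherever either copy differs.
Rpl7a: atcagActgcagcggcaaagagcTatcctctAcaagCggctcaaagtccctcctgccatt
Rpl7a-ps5: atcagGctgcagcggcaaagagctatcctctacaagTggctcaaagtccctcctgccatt
Gm4786: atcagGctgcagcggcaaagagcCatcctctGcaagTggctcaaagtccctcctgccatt
Rpl7a-ps5 has 2 differences in this stretch and Gm4786 has 4, and the bases between the differences are the same in all these rows. Of all 223 copy rows tested, 3 passed the adjusted p (1.35%, against 2.05% of all tested genes), these 2 lower, and Gm7536, a copy of Rpl27a, higher at 38.4, 18.3 and 50.9 CPM in col1-ACLP libraries, against 14.2, 16.5 and 14.4 CPM in col1 libraries (log2 fold change 1.25 ± 0.25; edgeR adjusted p = 0.012).

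The other members with an unadjusted p below 0.05 were all higher on col1-ACLP, by log2 fold changes of at most 0.26, and none passed the adjusted threshold. Rps29, a small-subunit protein, had 327, 296 and 350 CPM in col1-ACLP libraries, against 288, 254 and 269 CPM in col1 libraries (log2 fold change 0.26 ± 0.10; edgeR adjusted p = 0.21). Rps26, which sits at the mRNA exit of the small subunit, had 491, 574 and 572 CPM in col1-ACLP libraries, against 457, 465 and 463 CPM in col1 libraries (log2 fold change 0.24 ± 0.10; edgeR adjusted p = 0.23). Rpl39, a small protein at the exit tunnel, had 383, 376 and 404 CPM in col1-ACLP libraries, against 332, 353 and 327 CPM in col1 libraries (log2 fold change 0.20 ± 0.09; edgeR adjusted p = 0.32). The groups do not overlap for any of these. Rpl3, which reaches towards the peptidyl transferase centre, and Rpl31, near the tunnel exit, also had groups that do not overlap, each with a log2 fold change of 0.19.

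Rpl21, a large-subunit protein, had the highest estimate of all members, and 1 library decided it. It had 150, 178 and 299 CPM in col1-ACLP libraries, against 149, 150 and 184 CPM in col1 libraries. The groups overlap, and the log2 fold change of 0.38 ± 0.18 (SE; edgeR adjusted p = 0.36) was 0.03 without col1-ACLP replicate 3.

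Below Rpl17, the members with the smallest p among those lower on col1-ACLP all had overlapping groups. Rps3a1, the second most abundant member per length, had 1520, 1913 and 1725 CPM in col1-ACLP libraries, against 1969, 1838 and 2120 CPM in col1 libraries (log2 fold change -0.20 ± 0.10; edgeR adjusted p = 0.38). Rps14, Rps15, Rpl22l1, Rpl27a, Rpl9 and Rps9 followed, with log2 fold changes of -0.14, -0.14, -0.13, -0.11, -0.05 and -0.05. The Rps14 row overlaps Ndst1 on the opposite strand, whose counts were 16.3% of its own, and since strand use in the counting is not given, reads of such pairs cannot be told apart. Rpl28 with Ube2s, Rpl35 with Arpc5l and Rps25 with Trappc4 are the other pairs above 10%.

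The P-stalk and other members with known separate roles gave no call. Rplp0, Rplp1 and Rplp2 had log2 fold changes of 0.09, 0.00 (-0.00034) and 0.12, each with an SE of 0.10 to 0.11. Rpl5 and Rpl11, which with the 5S rRNA bind MDM2 when ribosome assembly is disturbed, had log2 fold changes of 0.10 ± 0.09 and 0.09 ± 0.10 (SE), with groups that overlap. Rps6, the small-subunit protein phosphorylated by S6 kinases, had 948, 1079 and 1078 CPM in col1-ACLP libraries, against 933, 981 and 982 CPM in col1 libraries, and a log2 fold change of 0.10 ± 0.09 (SE). Rps2 was at -0.04, Rpl23 at -0.01 and Rpl41 at 0.10. Rack1 and Fau, small-subunit proteins outside the naming pattern, gave no call either, with log2 fold changes of 0.07 for Rack1 and 0.00 (0.0021) for Fau.

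Paralogs, the second copies of a ribosomal protein gene with their own expression patterns, were in most cases far below their parents. Per length, Rpl22l1 stood at 81.2 ± 1.68 TPM in col1-ACLP libraries and 90.2 ± 4.78 TPM in col1 libraries, while its parent Rpl22 was at 509.5 ± 19.6 TPM in col1-ACLP libraries and 494 ± 19.2 TPM in col1 libraries (SD, n = 3 each). Rpl7l1 was at 96.2 ± 6.70 TPM in col1-ACLP libraries and 100.2 ± 7.29 TPM in col1 libraries, and Rpl7 at 1155 ± 10.2 TPM in col1-ACLP libraries and 1126 ± 69.1 TPM in col1 libraries. Rps27l was the exception, at 557 ± 21.1 TPM in col1-ACLP libraries and 578 ± 43.9 TPM in col1 libraries, beside Rps27 at 646 ± 188 TPM in col1-ACLP libraries and 677 ± 38.1 TPM in col1 libraries. Rpl36al and Rpl39l stayed below 10 TPM in both groups, beside Rpl36a at 653 ± 26.3 TPM in col1-ACLP libraries and 649 ± 6.32 TPM in col1 libraries, and Rpl39 at 792 ± 61.2 TPM in col1-ACLP libraries and 697 ± 44.4 TPM in col1 libraries. The Rpl36al row overlaps Gm49383, which had 0 counts, on the same strand, and its 380 counts stood beside 710 in its copy row. The part of this in its low level was not tested. The members that were not tested for low counts were also paralogs. Rpl3l, known from striated muscle, had 4, 10 and 3 counts in col1-ACLP libraries, against 0 counts in each col1 library. Rpl10l, known from testis, had 0 counts in each col1-ACLP library, against 3, 0 and 0 counts in col1 libraries. Rps4l is annotated as a transcribed pseudogene and was not a member. No paralog passed a threshold.

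A pair of broadly needed ribosomal protein genes had almost no counts of their own, and their copies held more. Rps10, a small-subunit protein with a clear TOP tract above, had 2.83, 6.43 and 5.62 CPM in col1-ACLP libraries, against 4.00, 4.24 and 3.79 CPM in col1 libraries, while its processed pseudogene Rps10-ps2 had 102, 127 and 122 CPM in col1-ACLP libraries, against 139, 107 and 128 CPM in col1 libraries. Over the 6 libraries Rps10 had 1105 counts and its 2 copy rows 32929. Rpl24, a large-subunit protein, had 0.476, 1.65 and 0.977 CPM in col1-ACLP libraries, against 1.27, 1.06 and 1.24 CPM in col1 libraries, with 275 counts in all beside 3767 in its 2 copy rows, and all of its 100-base coding words occur elsewhere. The group values overlap for both genes and for both sums. The share of the gene's own transcripts in the copy rows was not tested. The Rps10 row also overlaps Gm49804, and the Rpl24 row Gm28037, each on the same strand and with 0 counts. The part of these overlaps in the low counts was not tested either. Rpl10 and Rps23, whose 100-base coding words also all occur elsewhere, had 215090 and 239619 counts over the 6 libraries. A 60-base coding stretch of Rps10 (bases 391 to 450) is shown, 1 where Rps10-ps2 differed most among the closely matching stretches examined. The copy is at chr16:20640941-20641000 of GRCm39, minus strand, with its 4 differing bases in capitals.
Rps10: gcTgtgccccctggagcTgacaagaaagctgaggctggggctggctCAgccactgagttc
Rps10-ps2: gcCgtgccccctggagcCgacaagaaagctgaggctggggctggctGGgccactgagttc

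Copies elsewhere in the genome were common. All 100-base coding words of 25 members occur elsewhere in GRCm39, at least 50% of them for 58 members and none for 8, out of 83 members whose coding sequence holds such words. Copy rows existed for 70 members, their counts exceeded 10% of the member's own for 20 members and exceeded the member's own for 3, Rps10, Rpl24 and Rpl36al. Across the 83 members, Spearman's rho between the copied share and the mean TPM was -0.01, as a description of rows that share libraries. The members with the widest standard errors at 100 CPM or more were Rps27a, Rpl21, Rps27 and Rps12, at 0.20, 0.18, 0.18 and 0.17. Rps27a had 542, 618 and 715 CPM in col1-ACLP libraries, against 601, 355 and 813 CPM in col1 libraries, the widest range inside one group among these.

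**Figure D5:**
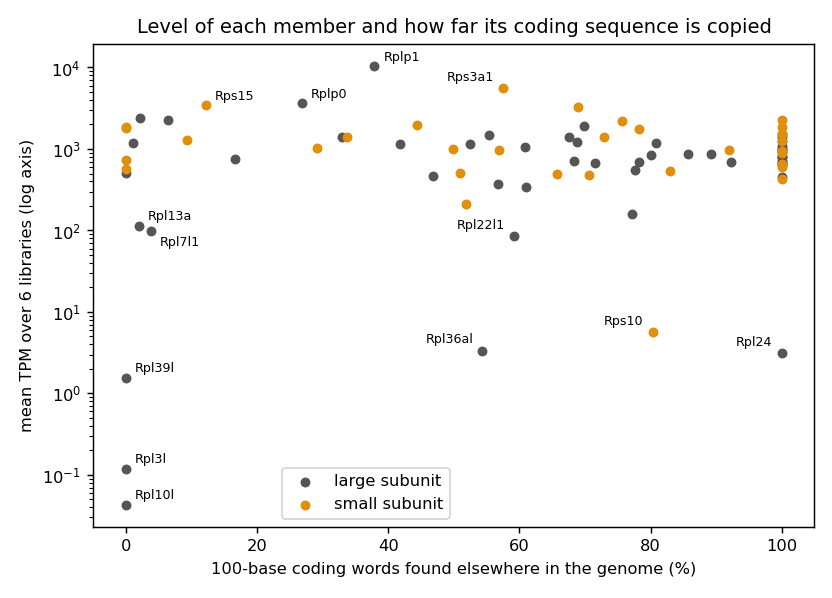
Mean TPM of each member over the 6 libraries (y axis, log scale) against the percent of its 100-base coding words found elsewhere in GRCm39 (x axis), for the 83 members with such words. In all, 76 of the 84 members exceed 100 TPM, and Rps10 and Rpl24 lie below 10 TPM with copied shares of 80.3% and 100%.

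Other genes of ribosome supply and of TOP control were read from lists beside the members. None of 23 tested translation factors and other genes with TOP mRNAs passed the adjusted p (median log2 fold change 0.05), and none of 14 RNA polymerase I genes did (median 0.10). Of 41 ribosome biogenesis genes, 1 passed the adjusted p alone (2.44%, against 2.05% of all tested genes), and the median was 0.12, with 35 above zero (85.4%, against 51.1% of all tested genes). That gene was Nop58, a core protein of box C/D small nucleolar ribonucleoproteins, which rose to 110, 111 and 116 CPM in col1-ACLP libraries, against 72.4, 88.3 and 81.1 CPM in col1 libraries (log2 fold change 0.48 ± 0.11; edgeR adjusted p = 0.027). Its partner Nop56 was at 0.43 (edgeR adjusted p = 0.062). The groups did not overlap for 19 of the 41 genes, which is 46.3%, against 20.4% of all tested genes and 29.4% of those at 100 CPM or more. Of the 19, 17 were higher, where the share over all tested genes is 10.2%. At an unadjusted p below 0.05 in edgeR there were 10 of the 41 (24.4%). That share was 14.9% of all tested genes and 25.3% of those at 100 CPM or more.

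Of 22 regulators of TOP mRNAs and of ribosome production, 1 passed the adjusted p alone (4.55%, against 2.05% of all tested genes). Their median log2 fold change was 0.07, with 14 above zero and 8 below it, the lowest at -0.62. The groups did not overlap for 4 of the 22 (18.2%, against 20.4% of all tested genes). Ddit4, an inhibitor of mTORC1, rose to 247, 214 and 228 CPM in col1-ACLP libraries, against 170, 139 and 162 CPM in col1 libraries (log2 fold change 0.55 ± 0.11; edgeR adjusted p = 0.011). Larp1 had 177, 179 and 189 CPM in col1-ACLP libraries, against 144, 148 and 145 CPM in col1 libraries, which do not overlap (log2 fold change 0.32 ± 0.10; edgeR adjusted p = 0.10). Myc, a transcription factor that drives ribosome production, was at 0.41 (edgeR adjusted p = 0.084), Mtor at 0.36 (0.31) and Eif4ebp1 at 0.02 (0.96). None of 10 p53 targets passed, with Mdm2 at 0.08 and Cdkn1a at 0.04, and none of 5 tested ribosomal protein chaperones and assembly factors did. The mitochondrial ribosomal protein genes, which serve the separate ribosome of mitochondria, also gave no call among 78 tested, with 7 at an unadjusted p below 0.05 in edgeR (8.97%, against 14.9% of all tested genes) and a median log2 fold change of -0.02, against 0.04 for the cytosolic members.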

How the data were processed

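The authors deposited a table of raw counts per gene for 6 libraries, with gene length in bases (unit: other). Per the study's methods and the submitters' processing notes, paired-end reads were aligned with HISAT2. The methods name GRCm39 and the notes mm10; 92.01% of table IDs found in GENCODE vM39 start within 1000 bases, so coordinates were read as GRCm39. For the counting tool, its use of strand and its treatment of reads with several matches: not given in the sources used here.

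Counts were tested with edgeR 4.0.16 (R 4.3.3): filterByExpr, TMM, glmQLFit and glmQLFTest, with all genes fitted together, Benjamini-Hochberg adjustment, and thresholds of adjusted p 0.05 and absolute log2 fold change 0.58. The fit was tested on simulated data. Alternatives were other scaling factors, filters, DESeq2 1.42.0, limma-voom (limma 3.58.1), a replicate block, leaving out each library, and, added later, summed copies. Copies are pseudogene rows holding at least 50% of a member's 31-base coding words, each given to its best member. Members and gene lists were chosen with earlier results of these data known. The genes named are those past a threshold, the 8 smallest p values in each direction, the 5 highest and 5 lowest TPM values, paralogs with parents, and chosen members and regulators. No per-sample column was left unused (0).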

Additional observations from a re-analysis of the deposited data

How the results depend on the processing

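Rpl17 stayed past both thresholds in 15 of 16 alternatives and lost the call when copies were summed (-0.26), where 0 members were called at both thresholds and 0 lower at the adjusted p alone. Members higher at the adjusted p alone numbered 2 with no filter on low counts (Rpl32 and Rpl21), 1 with DESeq2 and 1 with limma-voom, against 0 as reported; the cause was not tested. The count of all genes called at both thresholds was 245, was 389 with no filter, and ranged from 148 to 289 when single libraries were left out. The members' median log2 fold change ranged from -0.00079 to 0.11 over the same omissions and was 0.0025 with library totals only. Replicate numbers are shared by the groups, but same-numbered libraries did not deviate together (correlations of -0.02, -0.01 and -0.03). No sign of pairing was seen, though these values cannot exclude it and the labels do not settle it. With the replicate block, 1 member and 194 genes were called, the median was 0.03 and Rpl17 stood at -0.75. Over 36 named members and both thresholds, 564 of 575 alternative values kept their call and, for members not called, lay within 1 SE; of the others, 10 moved by more and 1, Rpl17 above, lost its call. The share of counts moved by less than 1 SD with protein-coding counts as the total (5.84% in col1-ACLP and 5.86% in col1) or with named pseudogene rows added (5.89% in col1-ACLP and 5.93% in col1). With 3 libraries a group, the median standard error of members at 100 CPM or more was 0.10 log2 units, which limits the differences that could be detected.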
